A study of Mus musculus with 47 samples.

Results

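The comparison set the untreated JARID2 degron line of mouse embryonic stem cells (ESC) beside the untagged line, before any auxin was given. It rests on 6 of the 47 libraries of the series, 3 untreated AID-JARID2 libraries and 3 untreated untagged libraries, chosen by line, stage and treatment from the labels. What the tag does and how the lines differ apart from the tag cannot be told apart in this design. Genes on the autosomes were counted, 13287 of which passed the filter on low values.

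Both lines are C57BL/6 ESC (ATCC) that carry Tir1, the plant F-box protein that lets auxin trigger the breakdown of a tagged protein. The JARID2 line also carries the auxin-inducible degron (AID) on JARID2. Cells grew without serum in N2B27 with 100 U/mL leukaemia inhibitory factor, 3 µM CHIR99021 and 1 µM PD0325901, which inhibit GSK3 and MEK. Untreated libraries received no auxin, and their labels give 12 hours as the length of treatment. The series holds 3 biological replicates of each group by its design text, apart from 1 group of 2, and whether a line is 1 clone is not given in the sources used here. Libraries used for reference were ESC given 50 µM auxin for 12 hours, and SUZ12 and MTF2 degron ESC (also with Tir1), untreated or with auxin. Contrasts against the SUZ12 and MTF2 lines used their untreated ESC. Neural progenitor cells (NPC) of the JARID2, untagged, SUZ12 and MTF2 lines were also used, without auxin or with 50 µM. Their labels give 5 days as the length of treatment. Titles of the JARID2 and MTF2 NPC libraries carry the same day as the ESC titles, and their stage was taken from other labels.

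JARID2 is an accessory subunit of Polycomb repressive complex 2 (PRC2), which places methyl groups on lysine 27 of histone H3. The core of the complex is SUZ12, EED and the methyltransferase EZH2 or EZH1. JARID2 and AEBP2 mark one form, and a Polycomb-like protein such as MTF2 or PHF19 marks the other. In ESC the complex sits mainly on CpG-rich promoters of silent developmental genes, and degron lines are compared before and after auxin to see what its loss does.

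The 6 libraries held 4241082 to 5756875 reads, and all ESC libraries carry the same sequencing run name in the labels. Set against counting noise alone, which would give 1, the chi-square over genes divided by its degrees of freedom was 1.12 to 1.23 between untagged replicates. It was higher between JARID2 replicates, at 1.68 to 2.11, and no pair of libraries was identical. Defining ESC markers were present in both lines, Pou5f1 at 1732 ± 46.7 TPM (reads per transcript length, scaled to the same total in each library) in untagged cells and 1724 ± 42.1 TPM in the JARID2 line (SD, n = 3). The summed level of 8 ESC markers was 6852 to 7016 TPM in the untagged libraries and 6120 to 6519 TPM in the JARID2 libraries, with 2 of the 8 called higher and 2 lower. Dppa5a made up the largest part of that sum, at 3172 ± 84.7 TPM in untagged cells and 2565 ± 146 TPM in the JARID2 line. Sox2 was the other marker called lower, and Zfp42 and Klf4 were called higher. Summed neural progenitor markers reached 47.9 to 53.3 and 37.9 to 45.8 TPM, and neuron markers 413 to 439 and 350 to 367 TPM. Fibroblast markers reached 2.26 to 3.46 and 1.79 to 2.48 TPM, and blood markers at most 0.821 and 2.71 TPM. The part of these shifts in the results was not tested.

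Before auxin, 887 of 13287 autosomal genes differed between the lines (6.68%; limma on log2(TPM + 0.5), Benjamini-Hochberg adjusted p under 0.05, used for every call below). Of these, 427 were higher in the JARID2 line (3.21%) and 460 were lower (3.46%). Most differences were small: the median size among the calls was 0.36 on the log2 scale, with quartiles of 0.23 and 0.54. Only 38 called genes (0.286%) differed by at least 2-fold, 18 higher and 20 lower, and 5 of the 38 are microRNA or snoRNA genes. With a fit to the 6 libraries alone, 449 genes were called, 418 of them among the 887, and 244 of the 449 were higher.

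**Figure D1:**
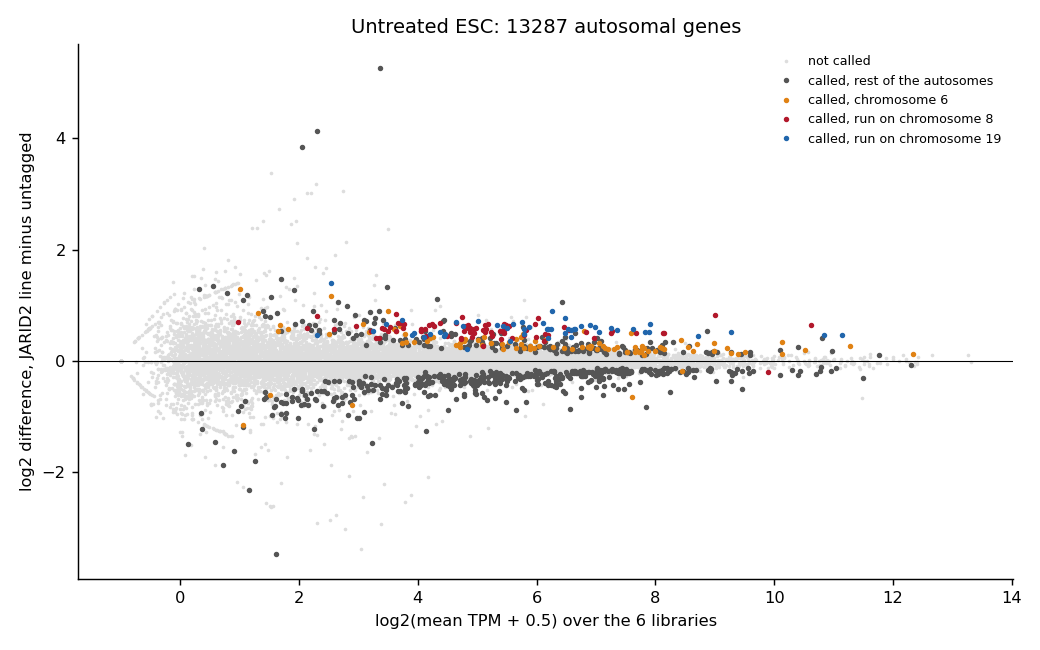
Each point is 1 of 13287 autosomal genes, with its mean level in the 6 libraries on the x axis (log2(TPM + 0.5)) and the log2 difference between the JARID2 line and untagged cells on the y axis. Coloured points passed the test. Calls on chromosome 6 and in the runs on chromosomes 8 and 19 lie almost all above 0, whereas 452 of the 657 calls on the rest of the autosomes lie below it.

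Jarid2 itself was slightly lower in its degron line. Its RNA stood at 109, 114 and 113 TPM in the untagged libraries and at 100, 93.3 and 93.4 TPM in the JARID2 libraries. The 2 groups did not overlap, as in 21.6% of all tested genes and 875 of the 887 called genes. The difference was -0.23 ± 0.05 on the log2 scale (SE; limma, adjusted p = 0.00479), and against the SUZ12 and MTF2 lines it was -0.26 (adjusted p = 0.000191). Jarid2 lies on chromosome 13 (mm10, chr13:44729474-44921643). Within 2 Mb of it 17 genes were tested and 0 were called in limma, and within 5 Mb 2 of 52 were called, both lower. Of all tested genes 6.68% were called, and with so few genes these counts cannot set the neighbourhood apart. The median difference was 0.04 within 1 Mb (4 genes), -0.11 within 2 Mb and -0.08 within 5 Mb, against -0.01 for all tested genes. The RNA says nothing of the level of the tagged protein, which was not measured in these files.

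Among the rest of PRC2, 0 of 5 autosomal core subunits passed the test. Suz12 stood at 145 ± 3.08 TPM in untagged cells and 134 ± 12.9 TPM in the JARID2 line, Eed at 115 ± 8.46 and 118 ± 9.41 TPM, and Ezh2 at 147 ± 1.86 and 151 ± 8.57 TPM. Of 6 accessory subunits tested, Jarid2 and Phf19 were lower (33.3% called, against 6.68% of all tested genes). Phf19, a Polycomb-like subunit that binds methylated lysine 36 of histone H3, measured 6.35, 4.85 and 5.11 TPM in untagged libraries against 3.15, 3.27 and 3.12 TPM. Its difference was -0.68 ± 0.16 (adjusted p = 0.00996), and with auxin it was -0.45 (adjusted p = 0.0984). Against the SUZ12 and MTF2 lines Phf19 was at -0.23 (limma, adjusted p = 0.347). Mtf2 and Aebp2 stayed within 0.02 of 0 on the log2 scale, at 0.01 and -0.02, and neither was called. The single PRC1 subunit called among 23 (4.35%) was Phc1, at 0.21 ± 0.04 (adjusted p = 0.00119), and it lies on chromosome 6.

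Many of the genes called higher in the JARID2 line lay close together on the genome. Along each chromosome the median difference of 15 neighbouring genes with a mean of 5 TPM or more was followed, and runs of at least 8 genes at 0.25 or beyond on the log2 scale were kept. In all, 3 stretches met this rule, on chromosomes 8, 19 and 13, and chromosome 6 was shifted over its whole length. Because these stretches were chosen on the untreated ESC libraries, their values there are a description, and other libraries carry the tests. Together chromosome 6 and the runs on chromosomes 8 and 19 held 222 of the 427 genes called higher, and 205 lay on the rest of the autosomes. Of all tested genes, chromosome 6 held 4.88%, the run on chromosome 8 0.963% and that on chromosome 19 0.572%. The rest of the autosomes held 93.4%.

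The run on chromosome 8 began at Xkr5 and ended at Tenm3 (mm10, chr8:18932729-48843951; 29.9 Mb). Among its 86 genes with a mean of 5 TPM or more, 83 were above 0 and the median was 0.54 on the log2 scale. Of all 128 tested genes there, 79 were called (61.7%), 78 of them higher. The 3 JARID2 libraries had run medians of 0.56, 0.46 and 0.55, while the untagged libraries lay between -0.01 and 0.02. At its near edge Mcph1 measured 0.01 and Agpat5 0.35, and at its far edge Tenm3 measured 0.57, Aga 0.56 (adjusted p = 0.0561) and Vegfc 0.13 (adjusted p = 0.705).

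This stretch of chromosome 8 held the genes with the 2 smallest p-values of the comparison, Eif4ebp1 and Slc25a4. Eif4ebp1, a repressor of cap-dependent translation that mTORC1 inactivates, stood at 1233, 1221 and 1226 TPM in untagged libraries and at 1891, 1923 and 1940 TPM in JARID2 libraries. Its difference was 0.64 ± 0.02 (adjusted p = 1.22e-14). Slc25a4, the mitochondrial ADP/ATP carrier, went from 366, 362 and 385 TPM to 642, 657 and 673 TPM, a difference of 0.82 ± 0.04 (adjusted p = 1.75e-11). Gsr, which regenerates reduced glutathione, measured 230 ± 4.14 and 325 ± 5.01 TPM (0.50 ± 0.03). Zfp42 (Rex1), a widely used marker of naive ESC, measured 75.8, 74.3 and 74.8 TPM against 111, 106 and 114 TPM (0.55 ± 0.05, adjusted p = 6.04e-08). In all 4 genes the lines did not overlap, as in 875 of the 887 called genes.

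The run on chromosome 19 was shorter and gene-dense, from Rce1 to Arl2 (mm10, chr19:4622591-6141548; 1.52 Mb). Of its 56 genes at 5 TPM or more, 54 were above 0, and the median was 0.55. Of 76 tested genes, 52 were called (68.4%) and all 52 were higher. JARID2 libraries had medians of 0.55, 0.53 and 0.53, and untagged libraries lay between -0.01 and 0.01. The shift ended within a short distance: Arl2 measured 0.61 (adjusted p = 3.01e-05), and the next gene at 5 TPM or more, Ppp2r5b, measured -0.09 (adjusted p = 0.682). At the near edge Rhod measured 0.01, Pcx 0.40 (adjusted p = 0.00512) and Lrfn4 0.73 (adjusted p = 5.30e-06), so the shift began slightly before the rule placed its start.

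Within it, Ap5b1, a subunit of the AP-5 adaptor of late endosomes, had the second largest rise among the named genes. It measured 3.29, 2.86 and 2.06 TPM in untagged libraries and 8.05, 7.13 and 8.49 TPM in JARID2 libraries (1.39 ± 0.18, adjusted p = 1.52e-05). With auxin the difference in Ap5b1 was 0.53 and missed the threshold (adjusted p = 0.0777). Znhit2 was at 53.4 ± 4.87 and 99.4 ± 8.67 TPM (0.89 ± 0.09). Rab1b, a GTPase of transport from the endoplasmic reticulum to the Golgi, was at 187 ± 9.79 and 295 ± 5.60 TPM (0.66 ± 0.04). Cfl1, the actin-severing protein cofilin, rose from 1894 ± 53.5 to 2600.3 ± 52.0 TPM (0.46 ± 0.03, adjusted p = 2.20e-09). Tm7sf2, a sterol reductase of cholesterol synthesis, was at 37.5 ± 6.46 and 58.9 ± 3.33 TPM (0.66 ± 0.10).

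Chromosome 6 differed along its whole length but by less, with medians of 0.11 to 0.17 in each of 6 windows of 25 Mb. Its 648 tested genes had a median of 0.14, 97 were called (15%), 92 of them higher. The JARID2 libraries measured 0.18, 0.10 and 0.13, above the untagged range of -0.01 to 0.01. The medians of the other 18 autosomes lay between -0.05 and 0.03. Gapdh, often used as a reference gene, lies here and measured 971, 1024 and 967 TPM in untagged libraries against 1238, 1325 and 1178 TPM (0.34 ± 0.04, adjusted p = 2.20e-05). Slc2a3, the GLUT3 glucose transporter, measured 453 ± 9.90 and 564 ± 22.7 TPM (0.32 ± 0.03), and Mcm2, a subunit of the replicative helicase, 543 ± 4.60 and 635 ± 26.7 TPM (0.23 ± 0.03). Trh, which encodes thyrotropin-releasing hormone, measured 159 ± 8.16 and 224 ± 16.6 TPM (0.49 ± 0.06).

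The run on chromosome 13 went the other way and is a cluster of replication-dependent histone genes (mm10, chr13:23535422-23745602). Its 18 genes had a median of -0.38, but only 2 of 20 tested genes were called (10%), Hist1h4f and Hist1h2bg. JARID2 libraries ranged from -0.45 to -0.11, and the untagged libraries from -0.14 to 0.15. Transcripts of such histone genes mostly lack a poly(A) tail, and the libraries were made from poly(A) RNA.

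**Figure D2:**
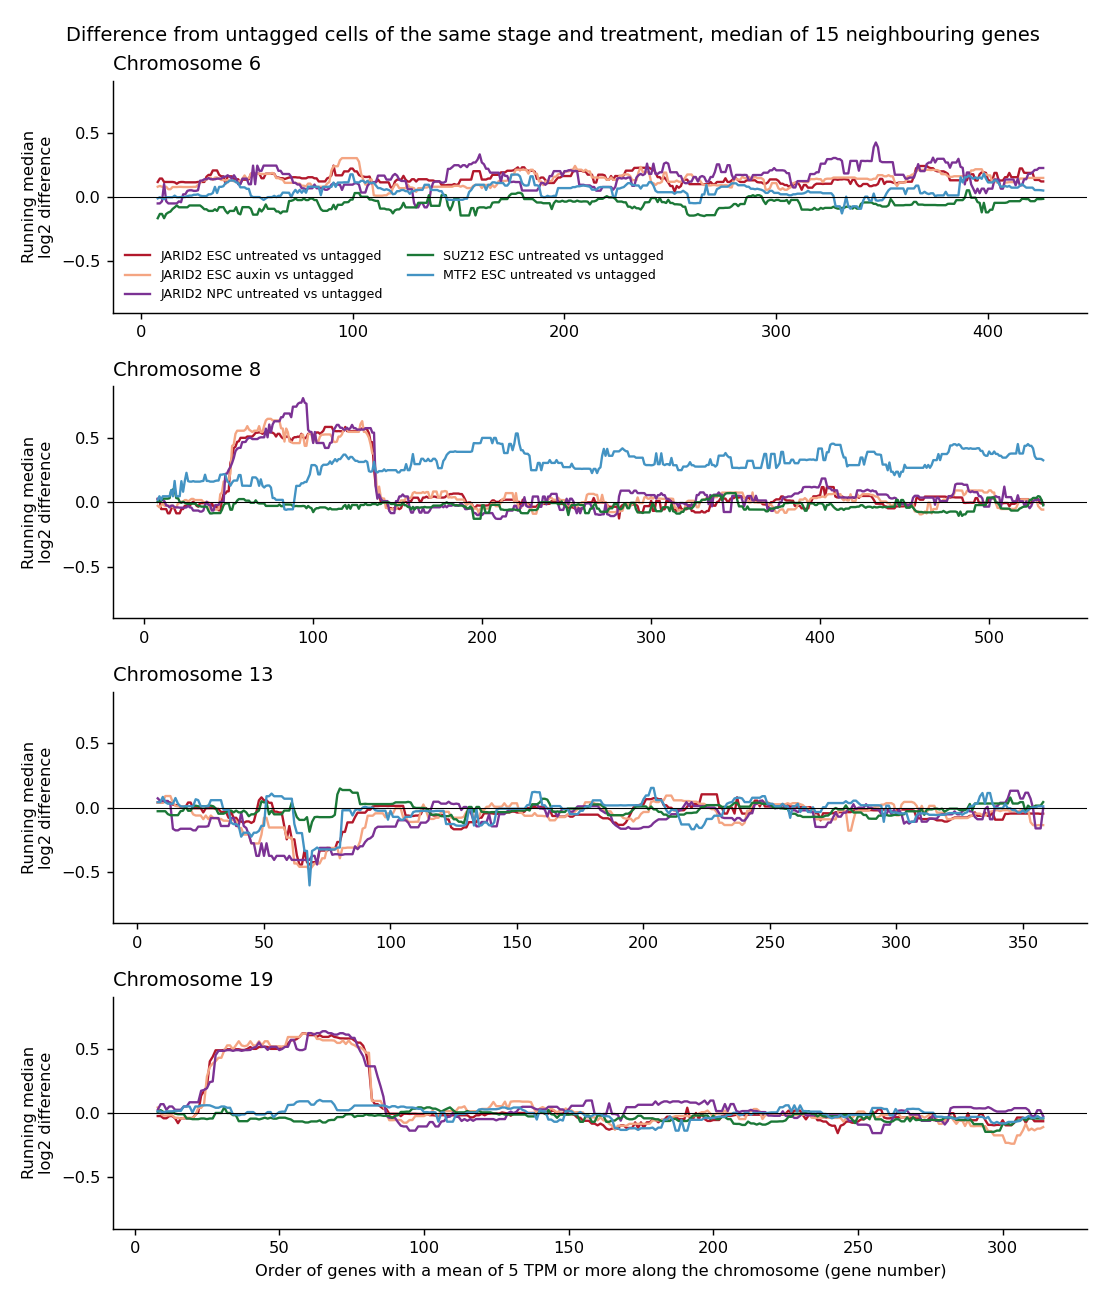
The running median of the log2 difference over 15 neighbouring genes is drawn in gene order for chromosomes 6, 8, 13 and 19, with each degron line set against untagged cells of the same stage and treatment. The 3 curves of the JARID2 line rise together to about the run medians of 0.54 on chromosome 8 and 0.55 on chromosome 19 and return to 0, while the SUZ12 curve stays near 0 and the MTF2 curve is raised over most of chromosome 8.

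The runs on chromosomes 8 and 19 and chromosome 6 were also higher in JARID2 libraries that played no part in finding them. In ESC with auxin the chromosome 8 run had medians of 0.59, 0.49 and 0.54, the chromosome 19 run 0.54, 0.55 and 0.53, and chromosome 6 0.17, 0.08 and 0.14. In untreated NPC the chromosome 8 run measured 0.61, 0.60 and 0.50, the chromosome 19 run 0.54, 0.53 and 0.52, and chromosome 6 0.16, 0.16 and 0.06. In NPC with auxin the chromosome 19 run measured 0.46, 0.48 and 0.43. The chromosome 8 run there measured 0.64, 0.49 and 0.62, and chromosome 6 0.17, 0.04 and 0.13. For both runs every JARID2 library lay above every library of the other lines in ESC with auxin and in NPC. For chromosome 6 this held in ESC with auxin and in untreated NPC. In NPC with auxin the groups overlapped on chromosome 6, where the MTF2 line reached 0.09. The chromosome 13 run, at -0.45 to -0.22 in JARID2 ESC with auxin, overlapped the other lines there and in NPC, and in untreated MTF2 ESC its mean was -0.27. DNA was not measured in the files used here.

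Neither run was raised to this level in the other degron lines. In untreated ESC the SUZ12 line had medians of -0.06 to -0.02 in the chromosome 8 run and -0.05 to -0.03 in the chromosome 19 run. The MTF2 line had 0.02 to 0.04 in the chromosome 19 run. Its chromosome 8 run measured 0.18 to 0.21, below the 0.26 to 0.28 of all tested genes of that chromosome in the MTF2 libraries. Tested directly against the mean of the SUZ12 and MTF2 lines, with no untagged library in the contrast, 1445 genes were called (10.9%). Of the run genes at 5 TPM or more, 76 of 86 on chromosome 8 and 51 of 56 on chromosome 19 were called in that contrast. Their medians were 0.45 and 0.54. The contrast uses the untreated JARID2 libraries on which the runs were chosen, so these values are a description too.

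**Figure D3:**
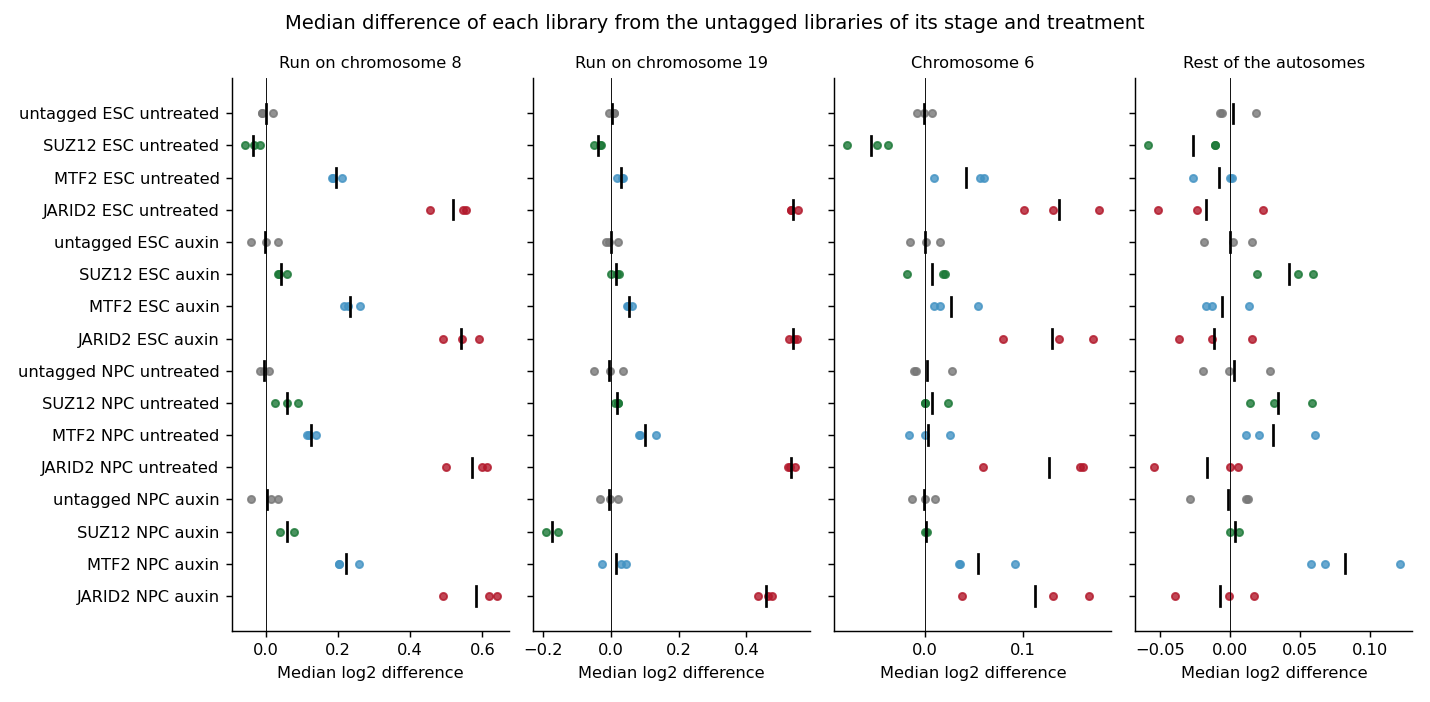
Each point is the median log2 difference of 1 library from the untagged libraries of its stage and treatment, over the genes of the chromosome 8 run, the chromosome 19 run, chromosome 6 or the rest of the autosomes. Black bars are means of the 3 libraries (2 for SUZ12 NPC with auxin). JARID2 libraries stand apart in both runs in each condition, and on the rest of the autosomes they lie between -0.05 and 0.02.

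Differences between the lines persisted in ESC given auxin. There 941 genes were called (7.08%), and 518 of the 887 untreated calls were called in the same direction, 58.4% of the untreated list and 55.0% of the auxin list. The number called in opposite directions was 0. The share was 73 of 79 calls in the chromosome 8 run, 49 of 52 in the chromosome 19 run, 56 of 97 on chromosome 6 and 339 of 657 elsewhere (51.6%). No gene passed the test of the line difference with auxin minus that without: limma called 0 of 13287 (0%), with 636 at an unadjusted p under 0.05, and voom on recovered reads called 0. Leaving out the untreated untagged library of replicate 1, or the auxin-treated one of replicate 2, gave 1 call each.

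In NPC the line difference was broader, and its direction carried over from ESC for most calls in the runs but not on the rest of the autosomes. Untreated NPC had 3653 of 14497 genes called (25.2%). Of 865 ESC calls tested at both stages, 286 were called in the same direction, 33.1% of the ESC calls and 9.35% of the NPC calls, and 129 in the opposite direction. In the chromosome 8 run 72 of 79 were called in the same direction and 0 in the opposite one, and on chromosome 19 these were 45 of 52 and 0. By sign alone, 79 of 79 and 51 of 52 went the same way. On chromosome 6, 44 of 95 were called the same way and 3 the opposite way. On the rest of the autosomes 125 of 637 were called the same way and 126 the opposite way. The test of NPC minus ESC called 2183 of 15366 genes (14.2%).

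**Figure D4:**
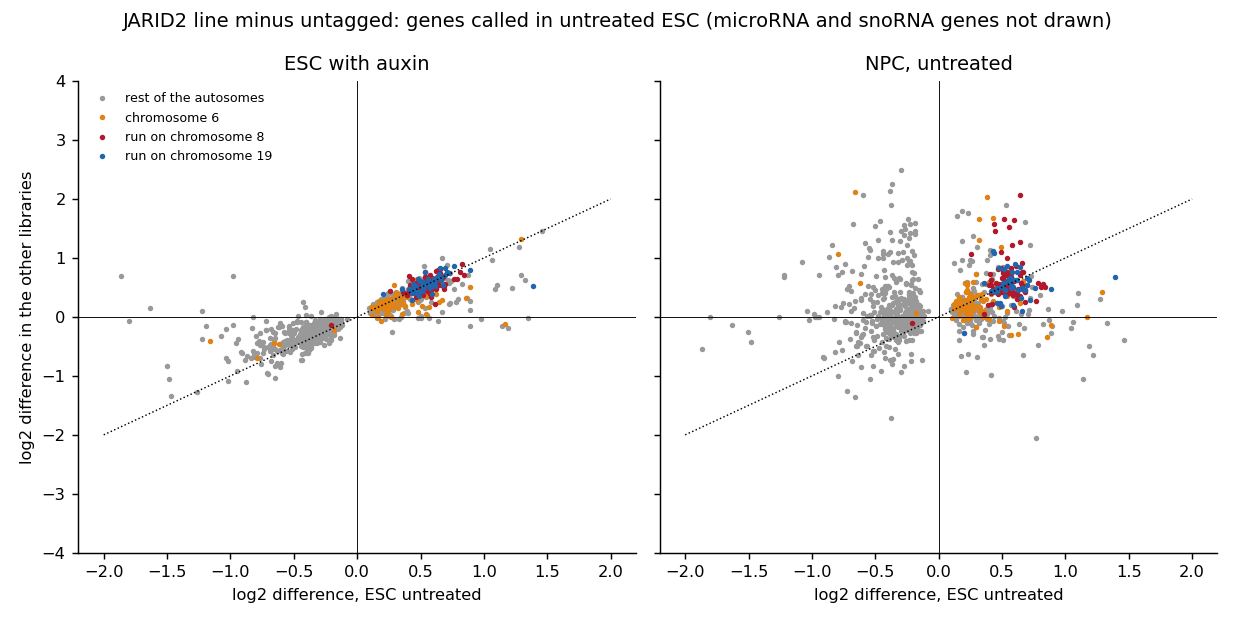
Genes called in untreated ESC are plotted with their log2 difference there on the x axis and the difference in ESC with auxin (left) or in untreated NPC (right) on the y axis; the dotted line marks equal values. With auxin no gene is called in the opposite direction, and points lie on average nearer 0 than the line (medians of 0.40 without and 0.31 with auxin for higher calls, -0.33 and -0.24 for lower calls). The genes were picked on their untreated values, which favours values nearer 0 in any other libraries, so these medians do not measure an effect of auxin. In NPC almost all genes of the 2 runs stay above 0. The rest of the autosomes spread to both sides, with 125 called in the same and 126 in the opposite direction.

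Outside chromosome 6 and the runs, 657 of 12415 genes were called (5.29%), 205 higher and 452 lower. Without the untagged library of replicate 1 the count was 426, 151 higher and 275 lower. Fitted with the 6 libraries alone it was 280, 80 higher and 200 lower, and without the untagged library of replicate 3 it was 438, 123 higher and 315 lower. Lower calls outnumbered higher ones in each of these fits. The largest rise among the named genes there, which have a mean of at least 2 TPM and exclude small RNAs and unnamed gene models, was in Arfgef3, which encodes a large protein related to the ARF exchange factors. It stood at 1.20, 1.24 and 1.22 TPM in untagged libraries and at 4.61, 3.99 and 4.14 TPM in JARID2 libraries (1.46 ± 0.17, adjusted p = 6.82e-06). The difference in Arfgef3 was 1.46 with auxin and 1.04 against the other degron lines (adjusted p = 4.93e-05), but -0.39 in NPC. Robo4, a Roundabout receptor known from endothelium, measured 2.24, 1.82 and 1.15 TPM against 4.15, 5.22 and 5.08 TPM (1.27 ± 0.22). Of the 12 named rises, 4 rest on few reads over the 3 libraries of each line. They are Dnajb3 (1.14; 10 and 22 reads), Prss16 (1.09; 13 and 33 reads), Gzmm (0.86; 22 and 41 reads) and Crhr2 (0.86; 27 and 53 reads). Dnajb3 and Gzmm each lost their call in 8 of 13 alternative analyses.

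Among falls, Krtdap, a keratinocyte differentiation-associated protein, was similar in all 3 contrasts of ESC. It measured 26.3, 25.8 and 21.1 TPM in untagged libraries and 8.86, 11.7 and 9.17 TPM in the JARID2 line (-1.26 ± 0.20, adjusted p = 0.00034). The fall in Krtdap was -1.27 with auxin and -1.21 against the other degron lines. Of these contrasts, the one against the other degron lines reuses the untreated JARID2 libraries on which Krtdap was picked, and the one with auxin does not. Tgfb1, which encodes the ligand TGF-beta 1, stood at 10.6, 9.71 and 10.6 TPM against 5.81, 4.21 and 4.57 TPM (-1.02 ± 0.12, adjusted p = 4.62e-06), with -0.75 in auxin. The largest fitted fall among the named genes, Efcab10 at -1.80 ± 0.42, rests on 15 reads against 3, and it was -0.06 with auxin. Nppb at -1.22, Cd4 at -1.16, Nmi at -1.04, Cfap206 at -1.03, Efcab2 at -0.98, Agpat4 at -0.98 and Wnt7b at -0.96 passed the test without auxin and did not pass it with auxin. The difference between the treatments passed the test in none of them in limma.

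The falls with the smallest p-values were in well-expressed genes. Ifitm1, a membrane protein that restricts virus entry and is active in early embryos, measured 291, 296 and 292 TPM in untagged libraries and 163, 167 and 161 TPM in JARID2 libraries. Its difference was -0.84 ± 0.04 (adjusted p = 2.11e-11), with -0.69 in auxin and -0.53 against the other degron lines. Tagln2, an actin-binding protein, went from 121 TPM in each untagged library to 63.6, 70.3 and 64.7 TPM (-0.87 ± 0.06, adjusted p = 4.28e-09). Lima1, which also binds actin, stood at 167 ± 0.911 and 109 ± 3.66 TPM (-0.61 ± 0.04). Gsto1, an omega-class glutathione transferase, stood at 362 ± 3.80 and 244 ± 18.5 TPM (-0.57 ± 0.05). In NPC the difference was 1.21 in Ifitm1, 1.02 in Tagln2 and 0.73 in Lima1, and in Gsto1 it was -0.085 (adjusted p = 0.566).

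Pluripotency genes moved in both directions. Of 22 naive pluripotency genes tested, 4 were called higher and 5 lower (40.9%, against 6.68% of all tested genes), with a median of 0.03 against -0.01 for all tested genes. Klf4, a Krüppel-like factor of the naive network, stood at 215, 205 and 213 TPM in untagged libraries and 272, 265 and 267 TPM in the JARID2 line (0.34 ± 0.04, adjusted p = 4.21e-06). Dppa3 (Stella), a maternal factor that limits DNA methylation, fell from 239, 225 and 253 TPM to 151, 148 and 156 TPM (-0.66 ± 0.06, adjusted p = 4.04e-07), against the upward median of its chromosome 6. Tbx3 at 0.23, Manba at 0.42 and Zfp42 made up the other rises, and Dppa5a at -0.31, Fgf4 at -0.25, Klf2 at -0.19 and Spic at -0.35 the other falls. Against the SUZ12 and MTF2 lines limma did not call Tbx3 (0.05) and Spic (-0.26). The other naive genes were called the same way there. Dppa3 was at -0.18, Dppa5a at -0.10, Fgf4 at -0.11 and Manba at 0.20, and Klf4 was at 0.25, Klf2 at -0.24 and Zfp42 at 0.41. Of 15 general pluripotency genes 1 was called higher and 2 lower (20%, against 6.68% of all tested genes). Utf1, a chromatin-bound ESC factor, was higher at 381 ± 6.24 and 551 ± 19 TPM (0.53 ± 0.04, adjusted p = 1.62e-08). Sox2 was lower at 436 ± 2.28 and 387 ± 8.83 TPM (-0.17 ± 0.04), and Esrp1, a splicing regulator, at -0.68 (adjusted p = 0.0445). Against the SUZ12 and MTF2 lines Utf1 was at 0.04 (limma, adjusted p = 0.567) and Sox2 at -0.02 (adjusted p = 0.766). Esrp1 was at -0.85 there (adjusted p = 0.00212).

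Genes that report FGF and ERK signalling included 2 clear rises, in cells held in a MEK inhibitor. Etv4, an ETS factor induced by this pathway, measured 55.2, 55.3 and 54.6 TPM in untagged libraries and 127, 105 and 116 TPM in JARID2 libraries (1.06 ± 0.09, adjusted p = 5.19e-08). Spry4, a feedback inhibitor of the same pathway, measured 3.55, 3.63 and 3.65 TPM against 8.26, 7.56 and 8.20 TPM (1.05 ± 0.14, adjusted p = 2.67e-05). These were the 2 genes called among 18 feedback targets, whose median was 0.13 (11.1% called, against 6.68% of all tested genes). Their levels in the MTF2 line were 126 TPM for Etv4 and 11.6 TPM for Spry4, and in the SUZ12 line 71.0 and 4.75 TPM. Against the mean of those lines the difference in Etv4 was 0.29 (adjusted p = 0.0158) and in Spry4 0.09 (adjusted p = 0.726).

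Single members of other signalling lists passed the test. Shares called were 15% of TGF-beta, NODAL and BMP, 17.6% of WNT and 21.4% of retinoic acid genes, against 6.68% of all tested genes. For formative epiblast genes the share was 26.7%, and for DNA methylation genes 7.14%. Id1 and Id3, BMP-induced inhibitors of basic helix-loop-helix factors, were at 0.53 ± 0.15 (adjusted p = 0.035) and 0.36 ± 0.06 (adjusted p = 0.0005). They were the 2 genes called higher among 20 of the TGF-beta, NODAL and BMP list, in which 1 was called lower. Against the SUZ12 and MTF2 lines Id1 was at 0.23 (limma, adjusted p = 0.298). Id3 was lower than in those lines, at -0.26 (adjusted p = 0.00169). Of 17 WNT targets, Lef1 at -0.76 ± 0.17 and Axin2 at -0.25 ± 0.05 were lower and Cdx1 at 0.33 ± 0.06 was higher. Against the SUZ12 and MTF2 lines these were at -0.29, -0.08 and 0.14, and limma called none of them. Of 14 retinoic acid genes, Aldh1a2, which makes retinoic acid, was lower at -0.74 ± 0.18, and Stra8 and Cdx1 were higher at 0.38 and 0.33. Among 15 formative epiblast genes, Etv4 and Dnmt3a were higher and Lef1 and Sall2 (-0.74) were lower. Dnmt3a, a de novo DNA methyltransferase, was the single call among 14 DNA methylation genes, at 31.4 ± 1.06 and 41.8 ± 3.21 TPM (0.41 ± 0.06, adjusted p = 5.98e-05).

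Developmental regulators known as PRC2 targets were called in both directions. Of 120 such genes 66 passed the filter, and 4 were called higher and 4 lower (12.1%, against 6.68% of all tested genes). Of the 66, 27 lay above 0, and the median was -0.12 against -0.01 for all tested genes. Nkx1-2, a homeobox gene of the caudal epiblast, measured 6.98, 7.47 and 5.72 TPM in untagged libraries and 11.7, 12.2 and 11.3 TPM in JARID2 libraries (0.77 ± 0.13, adjusted p = 0.000553). Tlx2, a homeobox gene on chromosome 6, was at 4.78, 8.21 and 9.64 TPM against 13.4, 11.2 and 17.9 TPM (0.89 ± 0.18, adjusted p = 0.00283). Cdx1 at 0.33 and Tbx3 at 0.23 were also higher, and both were well expressed in these cells, at 110 and 122 TPM in the untagged line. Pax6, a master regulator of eye and neural development, stood at 3.51, 4.35 and 3.08 TPM and 2.76, 2.24 and 1.76 TPM (-0.60 ± 0.16, adjusted p = 0.0263), and Olig2 and Olig1 were lower at -0.30 and -0.27. Against the SUZ12 and MTF2 lines the 4 rises were 0.04 (Nkx1-2), 0.44 (Tlx2), 0.14 (Cdx1) and 0.05 (Tbx3), and limma called none of them. Pax6, Olig2 and Olig1 were at -0.45, -0.99 and -0.48 in that contrast, and each passed the test. Of 12 Hox genes that passed the filter limma called 0.

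Because PRC2 is known for CpG-rich promoters, the upstream windows of 3 called genes are given (RefSeq, GRCm38.p6, the 250 bases before the start, 5′ to 3′, with each CG in capitals). The promoters of the Polycomb targets Nkx1-2 (chr7:132599638-132599887, minus strand) and Pax6 (chr2:105668646-105668895, plus strand), which differed in opposite directions, hold 19 and 15 CG. That of Krtdap (chr7:30787655-30787904, plus strand) holds 4.
Nkx1-2: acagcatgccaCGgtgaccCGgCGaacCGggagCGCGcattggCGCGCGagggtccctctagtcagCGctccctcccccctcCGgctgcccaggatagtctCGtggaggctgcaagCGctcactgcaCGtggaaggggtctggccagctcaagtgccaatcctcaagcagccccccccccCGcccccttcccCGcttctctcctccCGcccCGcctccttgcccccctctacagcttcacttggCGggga
Pax6: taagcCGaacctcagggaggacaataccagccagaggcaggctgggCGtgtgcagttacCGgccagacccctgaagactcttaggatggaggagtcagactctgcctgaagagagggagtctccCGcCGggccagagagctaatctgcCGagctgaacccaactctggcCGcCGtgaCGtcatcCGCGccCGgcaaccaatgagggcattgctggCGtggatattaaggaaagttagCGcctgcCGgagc
Krtdap: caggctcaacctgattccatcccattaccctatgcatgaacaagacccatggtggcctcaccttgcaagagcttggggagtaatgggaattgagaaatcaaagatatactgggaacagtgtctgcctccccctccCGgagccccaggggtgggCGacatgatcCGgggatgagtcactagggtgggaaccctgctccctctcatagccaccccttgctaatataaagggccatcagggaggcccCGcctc

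The median count of CG, which reads the same on both strands, was 16 or 17 in called and in all tested genes. A RefSeq window was matched for 10018 of the 13287 tested genes, with a median of 16 CG and 73.6% holding at least 10. Outside chromosome 6 and the runs, the medians were 17 CG among 160 genes called higher and 16 CG among 349 called lower. At least 10 CG were present in 75.6% and 72.2% of these windows. In the 2 runs 65 windows of genes called higher had a median of 16 CG, and 83.1% held at least 10.

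Glycolysis and hypoxia genes that passed the test were all higher. Of 25 tested, 9 were higher and 0 lower, against 3.21% of all tested genes called higher, and the list median was 0.03. Of the 9, 4 (Gapdh, Slc2a3, Tpi1 at 0.25 and Hk2 at 0.21) lie on chromosome 6, and 5 lie outside it and the runs. Pdk1, the kinase that keeps pyruvate out of the citric acid cycle, measured 5.58, 6.80 and 5.58 TPM against 12.4, 10.5 and 11.1 TPM (0.87 ± 0.11, adjusted p = 1.49e-05). Pfkp at 0.25, Slc2a1 at 0.23, Ldha at 0.16 and Gpi1 at 0.12 made up the rest. Pdk1 stood at 10.2 TPM in the MTF2 line and 5.69 TPM in the SUZ12 line.

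Genes of the amino acid and unfolded protein stress response were mostly lower where called, 5 lower and 1 higher among 23, against 3.46% of all tested genes called lower and 3.21% called higher. Atf4, the transcription factor of this response, fell from 514 ± 12.9 to 450 ± 16.8 TPM (-0.19 ± 0.04, adjusted p = 0.00118). The serine synthesis enzyme Psat1 was at -0.20 ± 0.03, the mitochondrial enzyme Shmt2 at -0.19 ± 0.03, Chac1 at -0.56 and Nupr1 at -0.65. The exception, Pdia4 at 0.15, lies on chromosome 6. Cholesterol synthesis had Tm7sf2 and Dhcr7 (0.20) higher and Hmgcs1 (-0.15) lower among 22 (13.6% called, against 6.68% of all tested genes). Among 25 proliferation genes Mcm2 and Mcm5 (0.16) were higher (8% called), and of 22 p53 response genes limma called 0.

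Detoxification and interferon genes gave mixed counts. The share called was 22.2% of aryl hydrocarbon receptor genes and 22.2% of interferon response genes, against 6.68% of all tested genes. Of 9 aryl hydrocarbon receptor genes, Aldh3a1 was lower at 9.95 ± 0.529 and 4.76 ± 1.32 TPM (-1.02 ± 0.25, adjusted p = 0.0149). Gstm1 was lower at 103 ± 6.46 and 70.6 ± 4.35 TPM (-0.54 ± 0.06, adjusted p = 6.82e-06). Aldh3a1 also stood at 4.76 TPM in the SUZ12 line and 4.59 TPM in the MTF2 line. Of 18 interferon response genes, Ifitm1, Ifitm3 (-0.52 ± 0.06) and Ifitm2 (-0.18) were lower, and Ddx58, the RNA sensor RIG-I, was higher at 19 ± 0.899 and 26.4 ± 0.613 TPM (0.47 ± 0.09).

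Imprinted genes, expressed from 1 parental allele and variable between ESC lines, had 4 called lower and 1 higher among 36 (13.9%, against 6.68% of all tested genes). Peg3, a paternally expressed zinc finger gene, measured 51.1, 48.4 and 46.7 TPM in untagged libraries and 34.6, 31.3 and 33.7 TPM in JARID2 libraries (-0.55 ± 0.06, adjusted p = 2.89e-06). Peg10, a retrotransposon-derived gene on chromosome 6, fell from 8.92 ± 0.821 to 4.98 ± 1.00 TPM (-0.79 ± 0.13). Its level was lower still in the SUZ12 and MTF2 lines, at 3.22 and 3.32 TPM. Phlda2, a maternally expressed gene that limits placental growth, was at -0.59 ± 0.11, Rian at -0.91 and Zdbf2 at 0.47. Of 34 germ line genes 14.7% were called, against 6.68% of all tested genes. Dazl was higher at 43.0 ± 4.25 and 65.8 ± 4.20 TPM (0.61 ± 0.09), as was Stra8. Tdrd12 (-0.50 ± 0.06), Fkbp6 (-0.52) and Tfap2c (-0.25) were lower. Against the SUZ12 and MTF2 lines limma called Dazl, Stra8 and Tdrd12 the same way. Fkbp6 (-0.18) and Tfap2c (-0.05) were not called there.

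Lists of other lineages held between 0 and 4 calls each, with shares of 20% of neural progenitor, 17.6% of endoderm, 11.8% of trophectoderm and 10% of neuronal genes tested, against 6.68% of all tested genes. Of 20 neural progenitor genes 1 was higher (Vim, 0.33 ± 0.04) and 3 were lower (Pax6, Olig2 and Msi1 at -0.26), with a median of -0.22. Of 20 neuronal genes Tubb3, at 242 ± 7.56 and 185 ± 8.0 TPM (-0.38 ± 0.05, adjusted p = 2.28e-05), and Nefl (-0.22 ± 0.06, adjusted p = 0.0406) were lower, and Nefl lost its call in 11 of 13 alternatives. Endoderm had Trh higher and Apoe (-0.26 ± 0.03) and Lamb1 (-0.39 ± 0.07) lower among 17, and trophectoderm had Tfap2c and Cldn4 (-0.37 ± 0.10) lower among 17. In the 2-cell-like list 1 of 22 was lower (4.55%), Calcoco2 at -0.29 ± 0.03. The limma test called 0 of 17 mesoderm, 0 of 8 neural crest, 0 of 8 fibroblast, 0 of 6 blood and 0 of 5 clustered protocadherin genes that passed the filter, and 0 of 10 cell-cycle inhibitors and D cyclins. For example, Fn1 stood at 457 ± 9.82 and 464 ± 38.1 TPM, Ccnd3 at 533 ± 18.4 and 525 ± 5.20 TPM and Trp53 at 723 ± 9.10 and 709 ± 46.7 TPM.

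**Figure D5:**
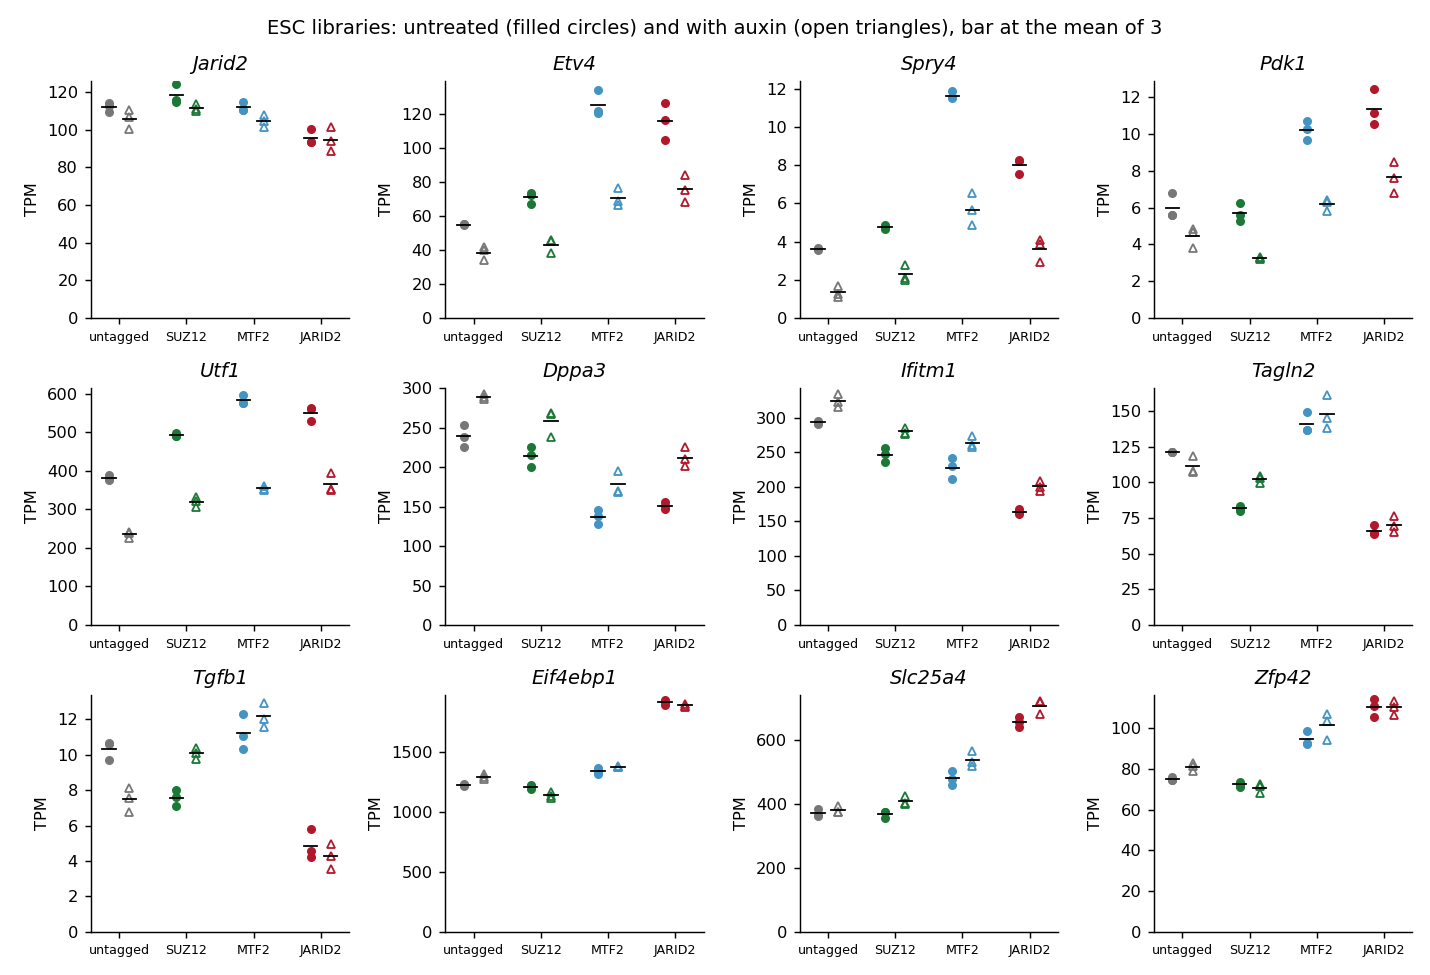
TPM of 12 genes in each ESC library of the 4 lines, with filled circles for untreated cells, open triangles for auxin and a bar at the mean of 3 libraries. Eif4ebp1 and Slc25a4 stand highest in the JARID2 line in both treatments, whereas Etv4 and Spry4 are as high or higher in the untreated MTF2 line.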

How the data were processed

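The authors deposited 1 table of TPM for 35856 gene symbols in 47 libraries. Libraries were strand-specific (dUTP) and made from poly(A) RNA, per the labels' protocols, and the submitters' processing notes name STAR 2.6.1d and mm10. How reads were counted, and on which annotation, is not given in the sources used here. TPM steps gave whole reads in every library for 100% of the 27296 genes above 0 (tolerance 0.001), and depths were taken from these reads. Symbols were matched to GENCODE M21: 26704 to 1 gene, 25437 of them autosomal, and all 47 columns were used or assigned to a group.

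Values were tested as log2(TPM + 0.5) with limma 3.58.1 (R 4.3.3; trend and robust variance), with the 8 ESC groups in 1 fit. Genes needed at least 1 TPM in at least 2 libraries, which 15104 passed, 13287 of them autosomal, and p-values were adjusted over all genes tested. Fold changes on this scale understate genes of low level. The fit was checked on simulated data. Tables were handled with Python 3.11.15 and pandas 2.3.3. P-values measure the spread between replicates that the design text calls biological.

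The comparison, the 33 gene lists and the named genes were chosen with earlier results of these data known, and the runs were chosen on the untreated ESC libraries themselves. The 103 named genes are the 12 largest rises and 12 largest falls with a mean of at least 2 TPM and no overlap between lines (without unnamed gene models, small RNA, histone and ribosomal genes), up to 3 called members of each list or otherwise its 2 highest-expressed genes, the PRC2 genes Jarid2, Suz12, Mtf2, Ezh2, Eed and Aebp2, called genes within 2 Mb of Jarid2, and the 5 smallest p-values in each direction. Some of these genes are not reported here.

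The fit was repeated with a pseudocount of 0.1 or 1, without the filter, with median-of-ratios scaling, on the compared groups alone, with a replicate block, with each library left out, and by voom on recovered reads. Counts without chromosome 6 and the runs were added after seeing the data.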

Additional observations from a re-analysis of the deposited data

Results flagged for a closer look

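The difference between the JARID2 line and untagged cells itself differed between NPC and ESC in 60 of the 100 named genes reported here (limma, adjusted p under 0.05 for the untreated NPC difference minus the untreated ESC difference). Each value below is that change on the log2 scale, positive where the JARID2 line stood higher relative to untagged cells in NPC than in ESC. Most named genes were picked on their untreated ESC difference, which is part of this change. That choice favours changes opposite in sign to the ESC difference, so the counts by direction below are a description. The genes of the 2 runs were all above 0 in NPC, 7 of 7, and the change was Ap5b1 -0.72, Znhit2 -0.41, Slc25a4 -0.26 and Tm7sf2 -0.55 where the difference was smaller in NPC and Eif4ebp1 0.63, Zfp42 0.98 and Gsr 0.33 where it was larger.

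Of the other genes called higher in JARID2 ESC, 10 shifted down in NPC, and 9 of these lay below 0 there. The FGF and BMP responders changed by Etv4 -1.16, Spry4 -1.23 and Id1 -0.54, and the remaining 7 by Nkx1-2 -2.82, Arfgef3 -1.85, Dnajb3 -2.19, Crhr2 -1.20, Pdk1 -0.92, Dhcr7 -0.47 and Vim -0.30. The 3 that shifted further up were Utf1 1.37, Stra8 1.65 and Slc2a3 1.34.

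Genes called lower in ESC made up most of the list. In 31 of them the difference moved up in NPC, and 24 lay above 0 there. Pluripotency, germ line and 2-cell genes changed by Dppa3 2.77, Esrp1 2.26, Tfap2c 1.47, Tdrd12 0.97 and Calcoco2 1.26. Imprinted genes changed by Phlda2 2.66, Peg10 1.86 and Peg3 1.72, and the Polycomb-like Phf19 by 1.45. Genes of WNT, lineage and epithelial lists changed by Lef1 1.52, Axin2 0.49, Wnt7b 0.95, Lamb1 2.53, Apoe 1.76 and Cldn4 2.62. Interferon-induced membrane proteins and actin-binding proteins changed by Ifitm1 2.05, Ifitm3 0.76, Tagln2 1.89 and Lima1 1.34, and stress and detoxification genes by Atf4 0.29, Shmt2 0.22, Gstm1 0.85, Gsto1 0.48 and Aldh3a1 1.20. The other large falls of ESC changed by Nppb 1.94, Efcab10 1.80, Krtdap 1.26, Cd4 1.16, Nmi 1.14, Cfap206 1.09 and Agpat4 0.98. The difference in NPC was 0 for Krtdap and Efcab10, and Aldh3a1, Cfap206 and Cd4 did not pass the filter of the NPC fit, so these 5 describe ESC alone. The neuronal genes Nefl -0.52 and Tubb3 -0.34 moved further down.

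Among named genes not called in ESC, 7 changed between the stages, S100a6 1.47, Fn1 0.95, Cd68 0.92, Mest 0.43, Ccnd3 0.45, Aebp2 0.34 and Ngfr -0.82, and 6 of the 7 lay above 0 in NPC.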

How the results depend on the processing

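No named gene with a call in untreated ESC, and none of the run and chromosome medians, changed sign under the alternatives run; other genes were not followed by sign. The number of genes called in untreated ESC was 881 and 891 with pseudocounts of 0.1 and 1, 734 with no filter, 935 with median-of-ratios scaling and 1053 with voom on recovered reads. It fell to 449 where only the compared libraries were fitted, and the same fit gave 550 calls with auxin and 934 against the other degron lines. Leaving out 1 library gave 618 to 882 calls, of which 333 of 882 were higher without JARID2 replicate 1, and 641 to 807 with auxin. It gave 1089 to 1422 against the other degron lines, 2901 to 3328 in NPC, 0 to 1 for auxin minus untreated and 1763 to 2048 for NPC minus ESC. The median of the chromosome 8 run then ranged from 0.51 to 0.58, that of chromosome 19 from 0.52 to 0.58, that of chromosome 13 from -0.50 to -0.30 and that of chromosome 6 from 0.12 to 0.16. The chromosome 19 median was 0.58 with voom, and that of chromosome 6 was 0.087 with no filter, which adds genes of low level. The causes of these shifts were not tested.

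Replicate numbers did not pair the samples: deviations of same-numbered libraries correlated at 0.03, 0.09 and -0.07 over 7599 genes. With the replicate block 924 genes were called in untreated ESC and 981 with auxin.

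Outside chromosome 6 and the runs, lower calls outnumbered higher ones under each alternative, at 435 against 253 with median-of-ratios scaling and 540 against 149 without JARID2 replicate 1. Of the 1339 values of named genes under alternatives, 1233 kept their call or lack of one, 102 of 27 genes lost it and 4 gained it. The call was lost in 11 of 13 alternatives for Nefl, 9 for Esrp1, 8 for Dnajb3 and Gzmm, 7 for Mcm5, and 6 for Cldn4, Id1 and Msi1. At 4241082 to 5756875 reads a library, genes of few reads such as Dnajb3 and Efcab10 are measured with little precision.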

Other observations

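Some calls of at least 2-fold belong to genes that the naming rule passed over, and those given here were chosen after their values were seen. AA467197 stood at 13.4 ± 1.79 TPM in untagged cells and 4.46 ± 0.639 TPM in the JARID2 line (SD, n = 3), a difference of -1.48 ± 0.23 on the log2 scale (SE; limma, adjusted p = 0.000247). For AA467197 it was -1.06 with auxin and -1.14 against the other degron lines, and both passed the test. Gm36816, an antisense transcript on chromosome 6, was higher by 1.29 without auxin and 1.32 with it, at a mean of 2.34 TPM in the JARID2 line. Hist1h2bg, in the chromosome 13 run, was at -1.14 without auxin and -1.21 with it.

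The 5 microRNA and snoRNA genes among these calls are short and rest on few reads. Snord88a, Mir5098 and Mir3101 were listed at 0 in the untagged libraries, and Mir1967 and Mir6921 were listed at 0 in the JARID2 libraries. With auxin none of the 5 passed the test in limma.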
